A study of Homo sapiens with 4 samples.

Results

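Transcripts of 10 RGS genes (RGS2, RGS3, RGS4, RGS10, RGS12, RGS14, RGS16, RGS17, RGS19 and RGS20) were examined in breast cancer cells depleted of AXL. They were taken by symbol from a table of 63677 genes, in which each of the 10 symbols has a single row. RGS4 was picked for its lower level in siAXL, so its difference between the groups is given as a description and was not tested. The other 9 genes were added as members of the same family, with earlier results of these data known. Of the 10 genes, 9 passed the filter on low counts that 16064 genes of the table passed, and RGS16 did not.

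RGS proteins (regulators of G protein signaling) bind the GTP-loaded alpha subunit of a heterotrimeric G protein and speed up its hydrolysis of GTP. They thereby shorten the signal that a G protein-coupled receptor sends to adenylyl cyclases, phospholipase C beta and other effectors. The R4 subfamily consists of small proteins such as RGS2 and RGS4, the R12 subfamily includes RGS12 and RGS14 with additional Ras- and G alpha-binding domains, and the RZ subfamily carries a cysteine string near its amino terminus.

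MDA-MB-231 is an established human line of triple-negative breast cancer cells with a mesenchymal phenotype. AXL, the depleted gene, encodes a cell surface tyrosine kinase whose relatives are TYRO3 and MER. Cells received control siRNA (siCt, 2 libraries) or pooled siRNAs targeting AXL (siAXL, 2 libraries) by transfection, and total RNA was extracted. Whether the 2 libraries of a group came from separate cultures is not stated, so the p-values measure the spread between these libraries, which may be technical. AXL itself had 29189 and 30617 normalized counts in siCt and 8658 and 7141 in siAXL, a log2 fold change of -1.93 (SE 0.0918, the standard error from limma, with an adjusted p of 0.000585).

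The libraries held 39574387 to 44585773 reads on genes, and a normalized count is a read count divided by the size factor of the library. Replicate libraries were not identical within counting error (chi-square per gene of 20.1 within siCt and 18.2 within siAXL), and each was counted as a sample. The 5 mesenchymal markers of this line (VIM, CD44, ZEB1, SNAI2 and CAV1) were high in every library, with sums of 144701 to 151112 normalized counts in siCt and 159530 to 159650 in siAXL. VIM, ZEB1 and CAV1 were higher in both siAXL libraries, CAV1 with 17507 and 17121 in siCt and 21462 and 22382 in siAXL. CD44 of this list went the other way, with 36518 and 36314 against 33968 and 36032. SNAI2 overlapped between the groups, with 1362 and 1440 against 1445 and 1307. Of 8 luminal markers, 5 were detected (more than 3 reads in each library), and the sum of the list was 31093 to 33909 in siCt and 26746 to 27957 in siAXL. EPCAM of this list went the other way, with 565 and 625 against 711 and 771. ESR1, PGR and FOXA1 had at most 6.71 normalized counts in any library. Of 4 leukocyte markers 2 were detected, with a sum of 78.6 to 85.6 in siCt and 108 to 130 in siAXL, most of it CD14 (69.0 and 73.7 against 100.04 and 113). Of 3 neuronal markers 2 were detected, with sums of 118 to 138 and of 134 to 149, and RBFOX3 was at 0. None of 3 endothelial markers passed the same minimum, and PECAM1 was at 0. The mesenchymal, luminal and leukocyte sums did not overlap between the groups, and their part in the differences below was not tested.

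A promoter window of RGS4, whose transcript was picked for its fall, and that of RGS17, which had the largest rise among the other members, are shown to give their base composition. Each run holds the 250 bases before the annotated start in RefSeq (GRCh38.p14), read 5′ to 3′ on the strand of the gene. The RGS4 window lies at chr1:163069111-163069360 on the plus strand and is 1 of 4 windows of that gene, and the RGS17 window lies at chr6:153131283-153131532 on the minus strand. In RGS4 the capitals mark the TATA box letters TATAAA, and in RGS17 they mark the GC box letters GGGCGG on either strand.

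RGS4: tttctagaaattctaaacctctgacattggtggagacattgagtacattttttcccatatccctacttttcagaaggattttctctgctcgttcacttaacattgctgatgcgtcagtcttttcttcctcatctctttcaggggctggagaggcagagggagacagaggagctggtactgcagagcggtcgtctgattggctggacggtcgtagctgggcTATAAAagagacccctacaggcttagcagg

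RGS17: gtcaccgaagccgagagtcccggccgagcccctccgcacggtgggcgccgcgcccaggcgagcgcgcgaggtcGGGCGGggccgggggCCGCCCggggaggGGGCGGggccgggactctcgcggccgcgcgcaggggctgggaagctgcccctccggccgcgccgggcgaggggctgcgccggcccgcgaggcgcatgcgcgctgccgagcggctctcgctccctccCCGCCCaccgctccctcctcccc

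The RGS4 window had a GC content of 47.6% and held TATAAA once, at position -30 from the start. The other 3 windows of RGS4 did not hold TATAAA, and their GC content was 36% to 49.2%. A window of RGS3, a member that was not called, also held TATAAA, at -166. The RGS17 window had a GC content of 84% and held the GC box 4 times, at -177, -162, -149 and -23. Members that were not called also held it, with 6 copies in a window of RGS19 (GC content 80.4%) and 5 in a window of RGS10 (77.2%). The window of RGS14 (56.8%) held 0 copies. Over 35116 promoter windows of the same length the median GC content was 58%, 10.7% held TATAAA and 42.6% held GGGCGG, each searched on both strands. Neither window held the cAMP response element TGACGTCA (1.65% of windows), the AP-1 site TGANTCA (6.57%) or the E-box CACGTG (6.34%). These matches describe the letters in the windows, and binding was not measured here.

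Levels were compared between genes per kilobase of exon, with the lengths of GENCODE 29. RGS10 was the most abundant member, at 1692 to 2051 normalized counts per kilobase over the 4 libraries. It made up 61.9% to 66.9% of the sum of the 10 genes. RGS19 followed at 377 to 428 per kilobase and RGS3 at 161 to 170 per kilobase, each apart from its neighbours in the order. RGS12 (103 to 111), RGS2 (91.4 to 118) and RGS20 (82.6 to 115) overlapped one another, and RGS20 also overlapped RGS4 (46.6 to 84.5), while RGS12 and RGS2 lay above RGS4. RGS14 (40.9 to 45.0), RGS17 (20.2 to 30.9) and RGS16 (0 to 1.79) were the lowest. The exons of RGS3 and RGS12 span 13.8 kb over all their isoforms, which understates both levels.

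**Figure D1:**
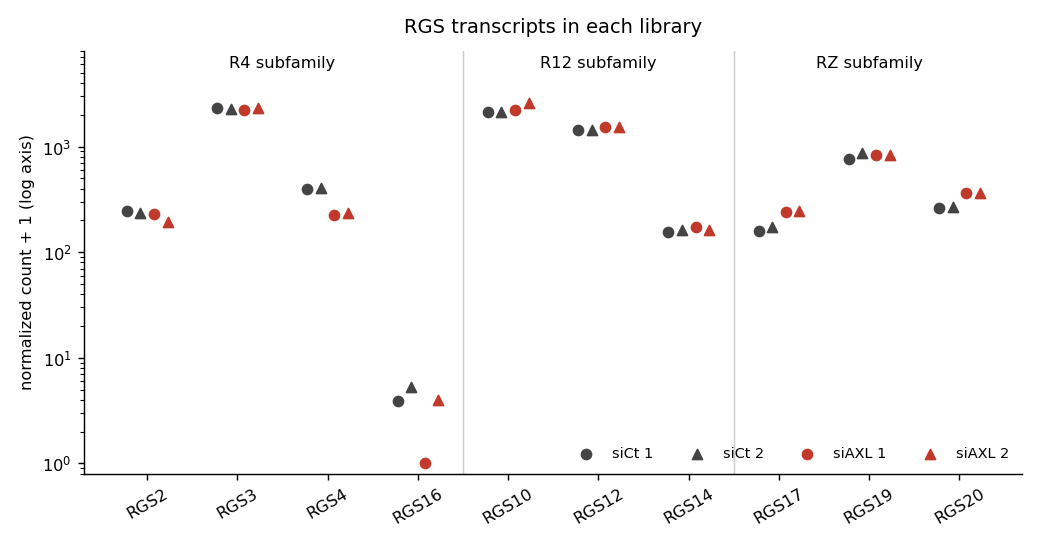
Normalized count + 1 (log axis) of each RGS gene in the 4 libraries, by subfamily, with siCt in grey, siAXL in red, circles for replicate 1 and triangles for replicate 2. RGS4 lies near 400 in siCt and near 230 in siAXL, RGS17 and RGS20 lie higher in both siAXL libraries, and RGS16 had at most 4 reads.

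In the R4 subfamily, RGS4 was lower in siAXL. RGS4 (ENSG00000117152), which acts on G alpha i and G alpha q subunits, had 397 and 408 normalized counts in siCt 1 and siCt 2 and 225 and 234 in siAXL 1 and siAXL 2. The groups did not overlap, as its choice implied, and the libraries within a group lay close together. The means were 403 ± 8.13 in siCt and 230 ± 6.04 in siAXL (SD, n = 2 each), so that siAXL stood at 57.0% of siCt. The log2 fold change was -0.81 (SE 0.0992), which describes the same values on which the gene was chosen. These counts rest on 377 to 414 reads in siCt and 232 to 238 in siAXL. Leaving out each library in turn gave -0.83 to -0.78, and scaling by library size alone gave -0.84.

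Ordered by log2 fold change from the lowest, RGS4 took place 218 of 16064 tested genes, between CCDC78 and SLC15A1, which were both at -0.81. Among the 1657 tested genes with a mean of 200 to 500 normalized counts, 11 had a log2 fold change as low or lower, RGS4 included. The median limma standard error of these 1657 genes was 0.112, close to that of RGS4. Such errors are drawn toward those of genes of like level. The within-group SD of the log2 values was 0.0337 for RGS4, below the median of 0.0989 for these genes. The 3 tested genes whose 4 centred log2 values were nearest to those of RGS4 were SLC12A8, PLLP and RASSF6, at Euclidean distances of 0.0457, 0.0508 and 0.0527 over the 4 libraries. SLC12A8 had 655 and 669 normalized counts in siCt and 384 and 383 in siAXL. PLLP, which encodes the membrane protein plasmolipin, had 453 and 465 against 268 and 270, and RASSF6 had 41.2 and 43.3 against 24.3 and 24.6. Genes chosen for likeness to RGS4 are lower in siAXL by that choice, and they were not tested.

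**Figure D2:**
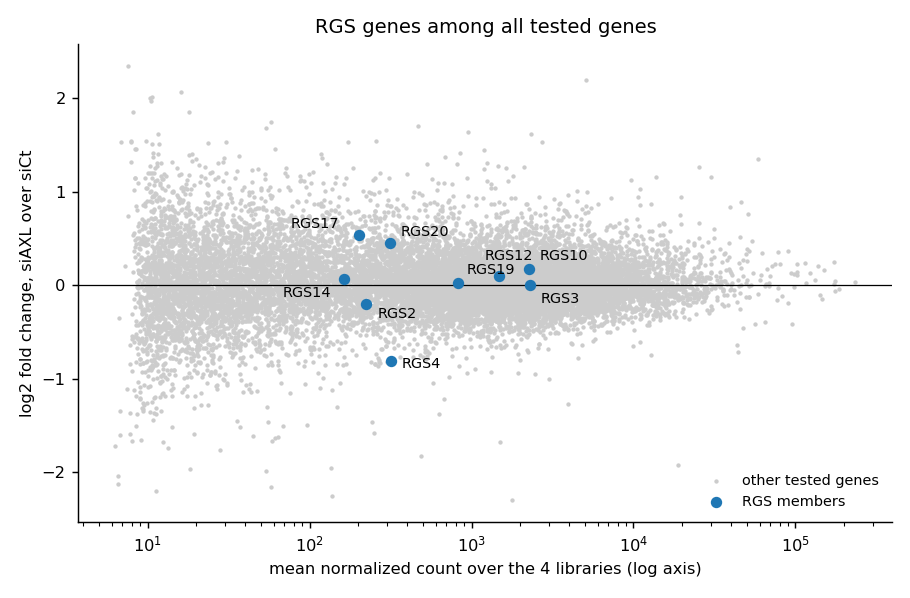
Log2 fold change, siAXL over siCt, against the mean normalized count of the 4 libraries (log axis) for 16064 tested genes in grey, with the 9 tested RGS members in blue. RGS4 at -0.81 lies at the lower edge of the genes of its level, and RGS17 at 0.54 and RGS20 at 0.45 lie on the upper side.

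The other R4 members did not pass the test. RGS2 (ENSG00000116741), which acts preferentially on G alpha q, had 246 and 233 normalized counts in siCt and 227 and 192 in siAXL. Both siAXL libraries were below both siCt libraries, but siAXL 1 only by a small margin. The log2 fold change of -0.20 (SE 0.128, limma adjusted p = 0.327) had a 95% interval of -0.50 to 0.10. It was -0.32 without siAXL 1 and -0.076 without siAXL 2, so the size of the difference rested on the second siAXL library. RGS3 (ENSG00000138835), a member with several long isoforms, had 2311 and 2261 normalized counts in siCt and 2222 and 2342 in siAXL. Its groups overlapped, and the log2 fold change was -0.0031 (SE 0.0603, limma adjusted p = 0.979, 95% interval -0.15 to 0.14). The sign of this value turned to 0.0061 under TMM scaling, to 0.013 without siCt 1 and to 0.035 without siAXL 1.

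RGS16 (ENSG00000143333), an R4 member closely related to RGS4, was near the limit of detection. It had 3 and 4 reads in siCt and 0 and 3 in siAXL, and it was not tested. In CPM, which scales reads to the library total, these were 0.0677 (95% exact Clopper-Pearson interval 0.0140 to 0.198) in siCt 1 and 0.101 (0.0275 to 0.259) in siCt 2. The values were 0.0673 (0.0139 to 0.197) in siAXL 2 and 0 (0 to 0.0827) in siAXL 1, where a floor of 3 reads is 0.0673 CPM. The intervals overlapped in all libraries, so a difference was not detectable at this depth, and they cover counting error only.

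In the RZ subfamily, RGS17 and RGS20 rose and RGS19 did not pass the test. RGS17 (ENSG00000091844), which acts on G alpha i and G alpha z, had 159 and 172 normalized counts in siCt and 238 and 244 in siAXL. The highest siCt library lay below the lowest siAXL library, and the siAXL mean was 45.3% higher (166 ± 9.27 against 241 ± 4.06, SD, n = 2 in each). The log2 fold change was 0.54 (SE 0.117, limma adjusted p = 0.0231, 95% interval 0.26 to 0.81). RGS20 (ENSG00000147509), first described for its action on G alpha z, had 264 and 268 normalized counts in siCt and 366 and 359 in siAXL. Its groups were also apart, with a mean 36.4% higher in siAXL (266 ± 2.78 against 362 ± 5.30, SD, n = 2 in each). The log2 fold change was 0.45 (SE 0.0973, limma adjusted p = 0.0230, 95% interval 0.22 to 0.68). Both directions held with each library left out, but neither call did without an siAXL library. Without siAXL 1 the adjusted p was 0.0875 for RGS17 and 0.113 for RGS20, and without siAXL 2 it was 0.0972 and 0.0852. DESeq2 on the recovered reads gave adjusted p-values of 0.0570 and 0.0534, and limma on all genes with at least 1 read gave 0.0597 and 0.0540.

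The 3′ UTR of RGS17 in GENCODE 29 holds 1 copy of CACATCA, a 7-base word singled out in earlier work on these data, and no other member holds it. The 2107 tested genes with the word had a median log2 fold change of 0.077, against -0.011 for the 10918 without it. The word was singled out on the same libraries, so these medians are not independent of that choice. The genes were split by the word alone, and the length of their 3′ UTRs was not taken into account. The part of the word in the difference of RGS17 was not tested. RGS19 (ENSG00000171700), also known as GAIP for its binding to G alpha i, had 765 and 868 normalized counts in siCt and 830 and 825 in siAXL. The siAXL libraries lay between the siCt libraries. The log2 fold change was 0.023 (SE 0.0858, limma adjusted p = 0.882, 95% interval -0.18 to 0.23), and it was -0.0064 under scaling by library size alone and -0.068 without siCt 1.

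In the R12 subfamily no gene passed the test. RGS10 (ENSG00000148908), a short G alpha i regulator and the most abundant member per kilobase, had 2139 and 2118 normalized counts in siCt and 2241 and 2568 in siAXL. Both siAXL libraries were higher, with siAXL 2 well above siAXL 1. The log2 fold change was 0.17 (SE 0.0769, limma adjusted p = 0.166, 95% interval -0.0093 to 0.35). It was 0.27 without siAXL 1 and 0.074 without siAXL 2. RGS12 (ENSG00000159788), a scaffold with Ras-binding and GoLoco motifs, had 1436 and 1420 normalized counts in siCt and 1534 and 1519 in siAXL. The libraries of each group lay within a narrow range and the groups did not overlap, at a log2 fold change of 0.096 (SE 0.0614, limma adjusted p = 0.324, 95% interval -0.049 to 0.24). RGS14 (ENSG00000169220), which also has Ras-binding and GoLoco motifs, had 155 and 161.4 normalized counts in siCt and 171 and 161.1 in siAXL. Its groups overlapped, and the log2 fold change was 0.067 (SE 0.125, limma adjusted p = 0.753, 95% interval -0.23 to 0.36).

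**Figure D3:**
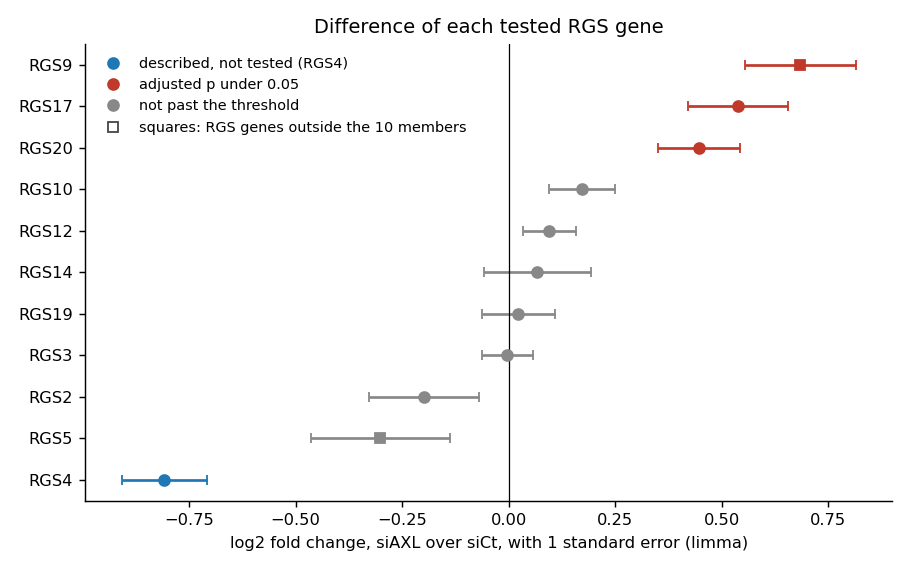
Log2 fold change, siAXL over siCt, of each tested RGS gene with 1 standard error from limma, where squares mark RGS genes outside the 10 members. RGS9, RGS17 and RGS20 (red) passed an adjusted p of 0.05, RGS4 (blue) was not tested for the reason of its choice, and the 7 genes in grey did not pass.

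Of the 8 tested members other than RGS4, 2 were called, both higher in siAXL. Over all 16064 genes tested, limma called 18.7% (3006 genes), of which 1735 were higher (10.8% of the genes tested) and 1271 lower (7.91%), so 57.7% of the calls were higher. Under scaling by library size alone 46.8% of 3281 calls were higher. Of the 8 members, 0 were called lower by limma, edgeR or DESeq2, and the 2 with an unadjusted p under 0.05 in limma were RGS17 and RGS20. The libraries of the 2 groups did not overlap in 5 of the 8 members (4 higher and 1 lower in siAXL), against 61.2% of all genes tested. The median log2 fold change of the 8 members was 0.081, against -0.0022 over all genes tested. Their median size regardless of sign was 0.13, against 0.17. The counts of the members are thus near those of the whole table, and no permutation of 2 libraries against 2 can give a two-sided p below 0.333.

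The summed levels per kilobase of the subfamilies can be set side by side. The R4 sum (RGS2, RGS3, RGS4 and RGS16) was 368 and 361 normalized counts per kilobase in siCt and 316 and 311 in siAXL. The RZ sum (RGS17, RGS19 and RGS20) was 480 and 534 in siCt and 554 and 550 in siAXL. The R12 sum (RGS10, RGS12 and RGS14) was 1854 and 1838 in siCt and 1946 and 2204 in siAXL, most of it RGS10. The sum of the 10 genes was 2702 and 2733 in siCt and 2817 and 3065 in siAXL. The R4 sum and the sum of the 10 genes include RGS4, which was picked for its fall, and none of these sums was tested.

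**Figure D4:**
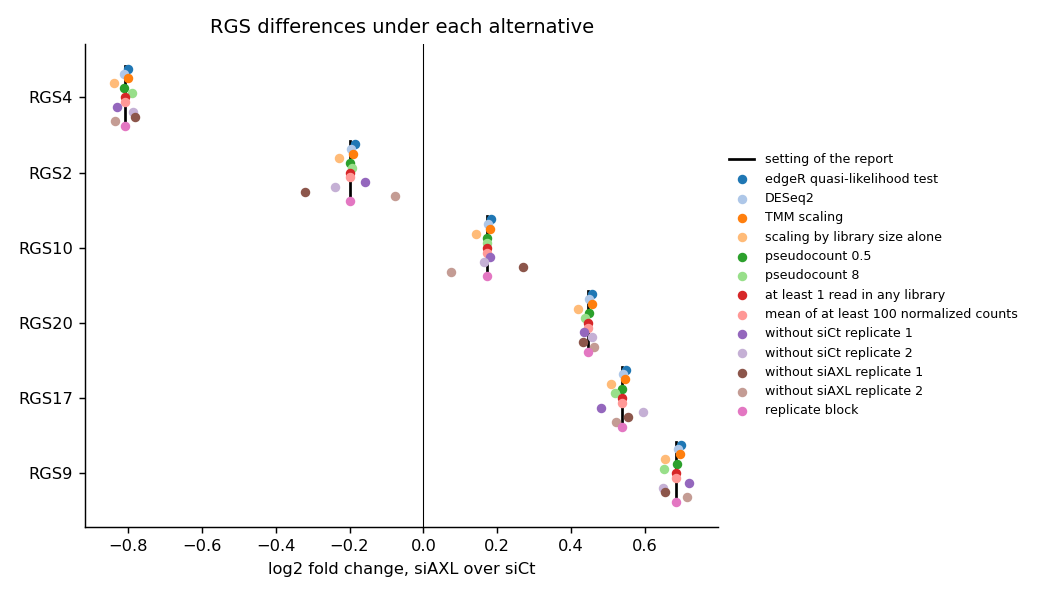
Log2 fold change, siAXL over siCt, of 6 RGS genes under each alternative of test, scaling, pseudocount, filter, left-out library and replicate block, with a black line at the value of the report. The values of RGS4 span -0.84 to -0.78, those of RGS17 0.48 to 0.59 and those of RGS20 0.42 to 0.46, and RGS2 and RGS10 move most when an siAXL library is left out.

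RGS genes outside the 10 members were measured in the same libraries. RGS9, an R7 member known from phototransduction and the striatum, had 116 and 111 normalized counts in siCt and 186 and 179 in siAXL. The groups did not overlap, and the log2 fold change was 0.68 (SE 0.130, limma adjusted p = 0.0147). It lost its call without siAXL 1 (adjusted p = 0.0743) and without siAXL 2 (0.0521). Its partners were not called: GNB5, the G beta subunit that pairs with R7 proteins, was at 0.073 (SE 0.0612, adjusted p = 0.453), and RGS9BP, its membrane anchor, at -0.47 (SE 0.329, adjusted p = 0.359). RGS5, the neighbour of RGS4 on chromosome 1 and also of the R4 subfamily, had 146 and 190 normalized counts in siCt and 130 and 140 in siAXL. Its log2 fold change of -0.30 (SE 0.163, limma adjusted p = 0.243) did not pass the test, and an overlapping annotated transcript shares 534 exon bases with it. RGS8, RGS13, RGS18 and RGS21 had 0 reads in every library, which allows up to 0.0758 CPM in the shallowest. RGS1, RGS6, RGS11 and RGS22 had at most 4 reads in any library, and RGS7 had 2 to 15.

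Among all 23 RGS and RGS-domain genes outside the members, 12 were tested, at a median log2 fold change of -0.014. RGS9 was the 1 called (8.33%, against 18.7% of all genes tested). ARHGEF12 and ARHGEF1, exchange factors for small GTPases with an RGS domain that binds G alpha 12 and 13, had the highest levels of those not called. ARHGEF12 had 16977 ± 2185 normalized counts in siCt and 17016 ± 1214 in siAXL (SD, n = 2 in each), at a log2 fold change of 0.0074. ARHGEF1 had 3958 ± 294 and 4518 ± 196, at 0.19 (SE 0.0701, limma adjusted p = 0.10004).

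The other genes of the G protein pathway were grouped by role in lists written by hand. The 8 lists together hold 141 genes, of which 101 were tested and 21 called, 17 higher and 4 lower in siAXL. This is 20.8% of those tested, against 18.7% of all genes, and the median log2 fold change was 0.082 against -0.0022. Leaving out siCt 2 or either siAXL library lowered this count, and leaving out siCt 1 raised it. The count over all genes tested moved the same way each time.

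**Figure D5:**
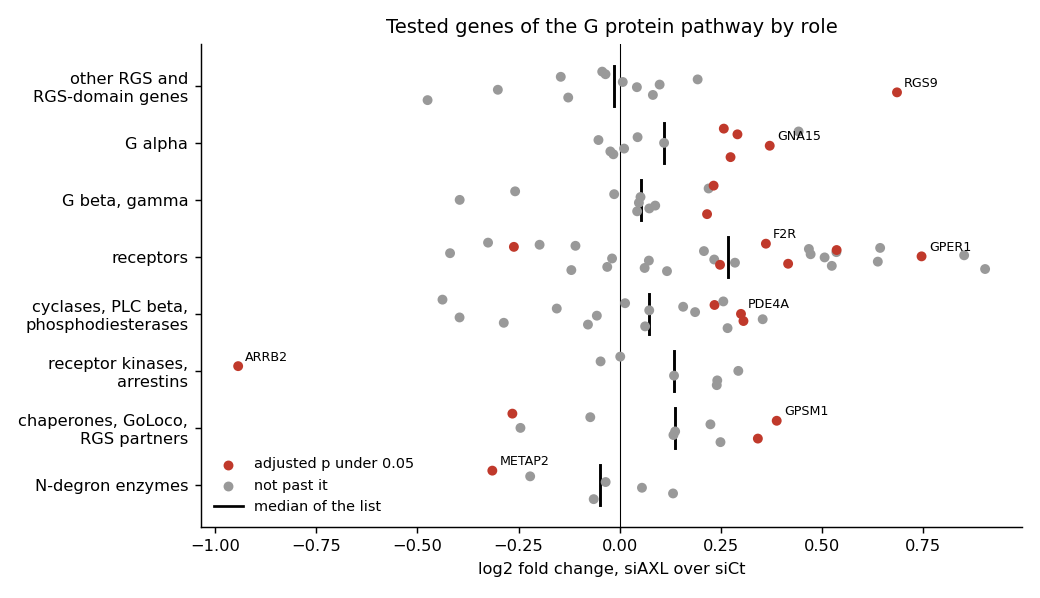
Log2 fold change, siAXL over siCt, of the tested genes of each role list, in red where the limma adjusted p was under 0.05, with the median of each list as a black line. Of the 101 tested genes 21 are red, 17 of them to the right of 0, and ARRB2 at -0.94 lies furthest to the left.

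RGS proteins act on G alpha subunits, each on some of them only, and the subunits of this list were not chosen as targets of the members. Of 16 genes 11 were tested and 4 were called (36.4%, against 18.7% of all genes tested), all higher. The median was 0.11. GNA15, of the Gq class, had 2109 and 2060 normalized counts in siCt and 2607 and 2785 in siAXL (log2 fold change 0.37, SE 0.0621, limma adjusted p = 0.00999). GNAS, the stimulatory subunit, was at 0.27 (adjusted p = 0.0188), GNA12, which couples to the exchange factors named above, at 0.29 (0.0202), and GNAI2, an inhibitory subunit, at 0.26 (0.0212). The groups did not overlap in any of these 4 genes, which is likely for called genes and held for 61.2% of all genes tested. GNAI3 and GNA11, the most abundant of those not called, were at 0.11 (limma adjusted p = 0.213) and -0.023 (0.808). Without siAXL 2 the calls of GNA15 (adjusted p = 0.0533), GNAS (0.0860), GNA12 (0.110) and GNAI2 (0.119) were lost. Without siAXL 1 those of GNAS (0.0959) and GNAI2 (0.0659) were lost, and without siCt 2 that of GNAS (0.0992).

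Of 17 G beta and gamma genes 11 were tested and 2 were called, at a median of 0.051. This was 18.2% of those tested, against 18.7% of all genes. GNB2 was at 0.23 (limma adjusted p = 0.0280) and GNG12 at 0.22 (0.0388), and GNB1 and GNG5 were at 0.047 (0.609) and -0.014 (0.902). Neither call held with any siAXL library left out. The adjusted p of GNB2 was 0.124 without siAXL 1, 0.113 without siAXL 2 and 0.129 without siCt 2, and that of GNG12 was 0.0892, 0.215 and 0.0861, and 0.103 without siCt 1.

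Of 40 G protein-coupled receptors 28 were tested, with 5 called higher and 1 lower (21.4%, against 18.7% of all genes tested). The median of 0.27 was the highest of the 8 lists. F2R, the thrombin receptor PAR1, had 3470 and 3478 normalized counts in siCt and 4572 and 4355 in siAXL (log2 fold change 0.36, SE 0.0558, limma adjusted p = 0.00772). GPER1, described as a membrane receptor for estrogen, had 206 and 166 against 316 and 306 (0.75, SE 0.135, limma adjusted p = 0.0128). HRH1, the histamine H1 receptor, was at 0.42 (limma adjusted p = 0.0154). LPAR1, a receptor for lysophosphatidic acid, was at 0.25 (0.0246) and EDNRB, an endothelin receptor, at 0.54 (0.0471), and these 2 are named after their values were seen. F2RL1 and ADORA2B, the most abundant of those not called, were at -0.019 (0.840) and -0.11 (0.378). F2R and GPER1 were called without each library in turn. HRH1 was not called without siAXL 2 (limma adjusted p = 0.0650), nor LPAR1 without siCt 2 (0.0854), siAXL 1 (0.0925) or siAXL 2 (0.116). EDNRB (limma adjusted p = 0.0549 to 0.235) lost its call whichever of siCt 1, siCt 2, siAXL 1 and siAXL 2 was left out.

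Of 23 adenylyl cyclases, phospholipase C beta genes and cAMP phosphodiesterases 17 were tested, and 3 were called, all higher. This was 17.6% of those tested, against 18.7% of all genes, and the median was 0.073. PDE4A and PDE8A, which degrade cAMP, were at 0.30 (limma adjusted p = 0.0141) and 0.23 (0.0404), and ADCY9, which makes it, was at 0.31 (0.0290). PLCB3, an effector of Gq, was at 0.19 (0.0801) and ADCY7 at 0.013 (0.905). Without siAXL 1 the adjusted p was 0.0821 for PDE4A and 0.185 for PDE8A, and without siAXL 2 it was 0.0525 for PDE4A, 0.113 for PDE8A and 0.151 for ADCY9. Without siCt 2 that of PDE8A was 0.168.

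The 7 receptor kinases and arrestins were all tested, and ARRB2 was the 1 called (14.3%, against 18.7% of all genes tested). ARRB2, beta-arrestin 2, which uncouples activated receptors from G proteins, had 1187 and 1279 normalized counts in siCt and 582 and 706 in siAXL. The groups lay far apart, at a log2 fold change of -0.94 (SE 0.105, limma adjusted p = 0.00307), and the value ran from -1.08 to -0.80 with each library left out. ARRB1, beta-arrestin 1, was at 0.13 (limma adjusted p = 0.244), and the receptor kinase ADRBK1, also called GRK2, at -0.047 (0.637). The median of this list was 0.13.

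Of the 9 chaperones, GoLoco proteins and RGS partners, all tested, 2 were called higher and 1 lower. This was 33.3%, against 18.7% of all genes tested, and the median was 0.14. CALM2, which encodes calmodulin, a protein that binds RGS4, was lower. It had 32482 and 32821 normalized counts in siCt and 27134 and 27206 in siAXL, at -0.27 (limma adjusted p = 0.0187), and CALM3 was at -0.073 (0.489). GPSM1, a GoLoco protein that binds G alpha i, was at 0.39 (limma adjusted p = 0.0339), and RIC8A, a chaperone of G alpha, at 0.13 (0.163). The adjusted p of CALM2 was 0.0786 without siCt 2, 0.1002 without siAXL 1 and 0.0872 without siAXL 2, and that of GPSM1 was 0.156 without siAXL 1.

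RGS4, RGS5 and RGS16 are degraded through the N-degron pathway after removal of their first methionine. Of 6 enzymes of this pathway, all tested, METAP2, a methionine aminopeptidase, was the 1 called (16.7%, against 18.7% of all genes tested). It had 7834 and 8235 normalized counts in siCt and 6287 and 6634 in siAXL, at -0.31 (SE 0.0582, limma adjusted p = 0.0136), and was not called without siAXL 1 (0.0758). METAP1 was at -0.035 (0.704) and UBR2, a ubiquitin ligase that reads the exposed end, at 0.055 (0.611), and the median of the list was -0.050. Protein levels were not measured here.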

How the data were processed

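RNA of MDA-MB-231 cells transfected with control siRNA (siCt, n = 2) or a pool of siRNAs against AXL (siAXL, n = 2) was sequenced on the Illumina HiSeq platform. The deposited table holds a signal per gene, in which the authors divided read counts by DESeq2 size factors. The submitters' processing notes name CASAVA 1.8, TopHat2 2.0.10, HTSeq 0.5.3, DESeq2 1.4.5 and GRCh37, and the annotation release and strand setting are not given in the sources used here. The authors' columns of log2 fold changes and p-values were not used. Dividing by the value of 1 read gave whole reads for 100% of the values (tolerance 0.01 read), and these recovered reads were used for depth and for the count tests.

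Genes passing edgeR's filterByExpr (16064 of 63677) were tested with limma 3.58.1 (R 4.3.3, eBayes with trend) on log2(normalized count + 1). Changes of low genes are understated on this scale. P-values were Benjamini-Hochberg adjusted over all genes tested, with a threshold of 0.05. Alternatives were edgeR 4.0.16 and DESeq2 1.42.0 on the recovered reads, TMM and library-size scaling, pseudocounts of 0.5 and 8, other filters, each library left out, a replicate block and a threshold of 0.01. The limma fit on log2(normalized count + 1), edgeR and DESeq2 were run on simulated data with 200 changed genes, and the other alternatives were not. The recovered depth per library was 39574387 to 44585773 reads, and intervals cover counting error only.

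The members, the role lists and the tests were chosen with earlier results of these data known. Named genes are the 10 members, AXL, the called genes of each list (the 3 of smallest adjusted p where more than 4 went one way), its 2 most abundant uncalled genes, and the 3 nearest to RGS4. Exon lengths, 3′ UTRs and overlaps came from GENCODE 29 and promoters from RefSeq, both GRCh38, matched by identifier or symbol (9 of 10 members had a promoter window). No chromosome 8 sequence was used. Some genes that the rule names are not reported here, although they stay in the counts of the lists.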

Additional observations from a re-analysis of the deposited data

How the results depend on the processing

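The fall of RGS4 (-0.84 to -0.78) and of AXL kept its direction and size under every alternative run. Of 377 comparisons of 29 named genes with an alternative, 300 kept direction and call, 70 kept the direction but lost the call, 1 gained a call and 6 reversed. The reversals were RGS3 (0.0060 with edgeR, 0.0061 with TMM scaling, and -0.041 to 0.035 with 1 library left out, above 0 without siCt 1 and without siAXL 1) and RGS19 (-0.0064 with library-size scaling, and -0.068 to 0.11 with 1 library left out, below 0 without siCt 1). With all 27108 genes of at least 1 read tested, 1097 genes, 0 members other than RGS4 and 5 pathway genes were called. At an adjusted p under 0.01 the counts were 859, 0 and 3, and DESeq2 called 0 of these members. With limma, 2 of these members had an unadjusted p under 0.05, as they did with DESeq2 and with the wider filter, and edgeR called 2. With 1 library left out, 1301 to 3900 genes, 0 to 2 members and 6 to 27 pathway genes were called, and with 0 members called the unadjusted p was under 0.05 for 3 without siAXL 1 and for 2 without siAXL 2. A lone library was then assumed to vary like the other group. The labels tie no replicate number to a shared culture or day, and with 2 pairs the correlation of deviations of the same numbers was 0.27. With a replicate block 7310 genes, 3 members (RGS10 in addition, adjusted p = 0.00285) and 49 pathway genes were called. The causes of these changes were not tested. With 2 libraries a group the spread of any single gene is poorly known, and genes under a few reads, such as RGS16, could not be compared.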

Other observations

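Some of the genes next to the members in the RefSeq gene order gave the following values, without a test of their relation to the members. ZNF618, beside RGS3, had 815 and 770 normalized counts in siCt and 1095 and 1227 in siAXL (log2 fold change 0.55, standard error, SE, 0.0837, limma adjusted p = 0.00736), while RGS3 was at -0.0031. LMAN2, beside RGS14, was at 0.23 (limma adjusted p = 0.0446), and RGS14 was at 0.067. OPRL1, the nociceptin receptor gene beside RGS19, had 93.0 and 60.7 against 122 and 114 (0.65, SE 0.221, limma adjusted p = 0.0855). GRK5, a receptor kinase gene beside RGS10, was at 0.24 (limma adjusted p = 0.0680), and TIAL1, on the other side of RGS10, at -0.096 (0.324), against 0.17 for RGS10. UCHL5, beside RGS2, was at -0.22 (0.0511), and ATP6V1H, beside RGS20, at -0.19 (0.0953), against 0.45 for RGS20. OPRM1, the mu opioid receptor gene beside RGS17, RGS8 beside RGS16 and RGS13 beside RGS2 had 0 reads in every library.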
